A study of Mus musculus with 2 samples.

Results

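The granulopoiesis transcription factors are 10 genes whose proteins bind DNA and direct the making of granulocytes: Cebpa, Cebpb, Cebpd, Cebpg, Gfi1, Gfi1b, Spi1, Runx1, Klf5 and Irf8. They were taken by gene symbol from the array's annotation, which gave 22 probe sets of 45101, and 10 genes of 18194 measured. The samples were neutrophils of C57BL/6 mice, an inbred laboratory strain, taken fresh from bone marrow with no treatment named in the labels. Cells that excluded the dye DAPI, stained strongly for the granulocyte antigen Gr-1 and lacked CD48, a surface protein found on most other blood cells, were sorted by flow cytometry, and the labels call the experiments independent. Each experiment gave 1 array, so there is 1 group of 2 arrays, replicate 2 and replicate 1. The sources used here do not give the ages, the sexes or the number of mice behind each array.

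Granulocytes arise from marrow progenitors through a sequence of transcription factors. The C/EBP proteins are leucine zipper factors that pair with each other: C/EBPα opens the granulocyte route, C/EBPβ serves granulocyte production during infection, C/EBPδ belongs to later stages, and C/EBPγ is a partner without an activation domain of its own. GFI1 is a zinc finger repressor without which mice make few mature neutrophils, and its paralogue GFI1B acts mainly in red cell and platelet precursors. PU.1 (the product of Spi1) and RUNX1 switch on myeloid genes, KLF5 is a zinc finger factor of the KLF family, and IRF8 steers progenitors towards monocytes and dendritic cells.

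Printed here are 3 promoters, those of the factor genes whose signal differed most between the arrays and of the paralogue of one of them. Each runs 5′ to 3′ from 250 bases before to 50 bases after a gene start in RefSeq (build GRCm38.p6). Capitals mark matches on either strand to short letters known from textbook sites. For C/EBP proteins the letters searched were TTGCNNAA. The core of a known GFI1 site was searched as AAATC, and that of a PU.1 site as GAGGAA. A RUNX site was searched as TGTGGT, and part of a site of CREB proteins as TGACG. Of general promoter elements, the letters of the CCAAT box were searched, and as a box near the start site TATAAA was searched. The Cebpb window is chr2:167688665-167688964 on the plus strand, the Gfi1 window is chr5:107725756-107726055 on the minus strand, (the outer of 2 starts listed for this gene), and the Gfi1b window is chr2:28621933-28622232 on the minus strand.
Cebpb: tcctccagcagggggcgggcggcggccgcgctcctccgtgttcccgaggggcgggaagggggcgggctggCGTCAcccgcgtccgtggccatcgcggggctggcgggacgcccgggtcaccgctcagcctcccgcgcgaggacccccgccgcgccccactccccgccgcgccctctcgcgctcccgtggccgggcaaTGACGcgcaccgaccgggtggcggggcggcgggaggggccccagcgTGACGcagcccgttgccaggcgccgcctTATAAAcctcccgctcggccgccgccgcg
Gfi1: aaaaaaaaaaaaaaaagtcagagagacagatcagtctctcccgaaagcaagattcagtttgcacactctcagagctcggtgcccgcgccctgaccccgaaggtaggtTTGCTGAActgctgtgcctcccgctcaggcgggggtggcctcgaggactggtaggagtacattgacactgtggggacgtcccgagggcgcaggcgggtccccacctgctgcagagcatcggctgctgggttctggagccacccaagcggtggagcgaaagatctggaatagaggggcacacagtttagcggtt
Gfi1b: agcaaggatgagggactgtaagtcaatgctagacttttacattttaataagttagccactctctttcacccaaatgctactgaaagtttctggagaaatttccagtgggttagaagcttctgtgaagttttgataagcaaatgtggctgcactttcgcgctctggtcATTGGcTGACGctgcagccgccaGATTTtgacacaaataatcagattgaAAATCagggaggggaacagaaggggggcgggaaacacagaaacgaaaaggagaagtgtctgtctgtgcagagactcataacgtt

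Positions are counted from 1 at the first printed base. The Cebpb window held TGACG on the minus strand at bases 71 to 75, on the plus strand at 198 to 202 and 244 to 248, and TATAAA at 272 to 277, and 80.7% of its bases were G or C. The Gfi1 window held a single match, to the C/EBP motif, at bases 108 to 115. The window of the other start listed for Gfi1, not printed, held none of the searched letters. The Gfi1b window held AAATC on the minus strand at 191 to 195 and on the plus strand at 217 to 221, besides CCAAT on the minus strand at 168 to 172 and TGACG at 174 to 178. No printed window held the PU.1 or RUNX letters. Of the 32851 windows of this length in the table, 10.8% held the C/EBP letters, 35.9% the GFI1 letters, 28.3% the PU.1 letters, 16.8% the RUNX letters, 20.8% the CREB letters, 37.4% the CCAAT box and 13.6% the TATAAA letters. No searched letters of different motifs overlapped in the printed windows. Windows were available for 7 of the 10 genes, and those of Cebpd, Spi1 and Klf5 were not used here.

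Of the genes for neutrophil proteins 12 of 12 were above background on both arrays, among them S100a8, Ltf, Camp and Lcn2, against 40.4% of all genes. The signal is a linear MAS5 brightness in arbitrary units. The background threshold was the 95th percentile of 87 probe sets of sensory receptor genes, 131 on replicate 2 and 108 on replicate 1. A probe set had to exceed it on both arrays, and a gene needed 1 such probe set. Each gene was read on its brightest probe set, also where only another of its probe sets was above background. The deposited values had been scaled to an equal trimmed mean on both arrays. The number of arrays limits the precision, and a difference between arrays of 1 group has no replicate check and no p-value.

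Of the 10 factors, 8 were above background on both arrays, Gfi1b and Irf8 being the exceptions. Among all measured genes the share was 40.4%. By probe set, 13 of the 22 were above background on both arrays, where 32.5% of all probe sets were. The same 8 genes were above background on replicate 2 alone and on replicate 1 alone. Fewer cells of a type and less RNA per cell cannot be told apart in these bulk samples.

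**Figure D1:**
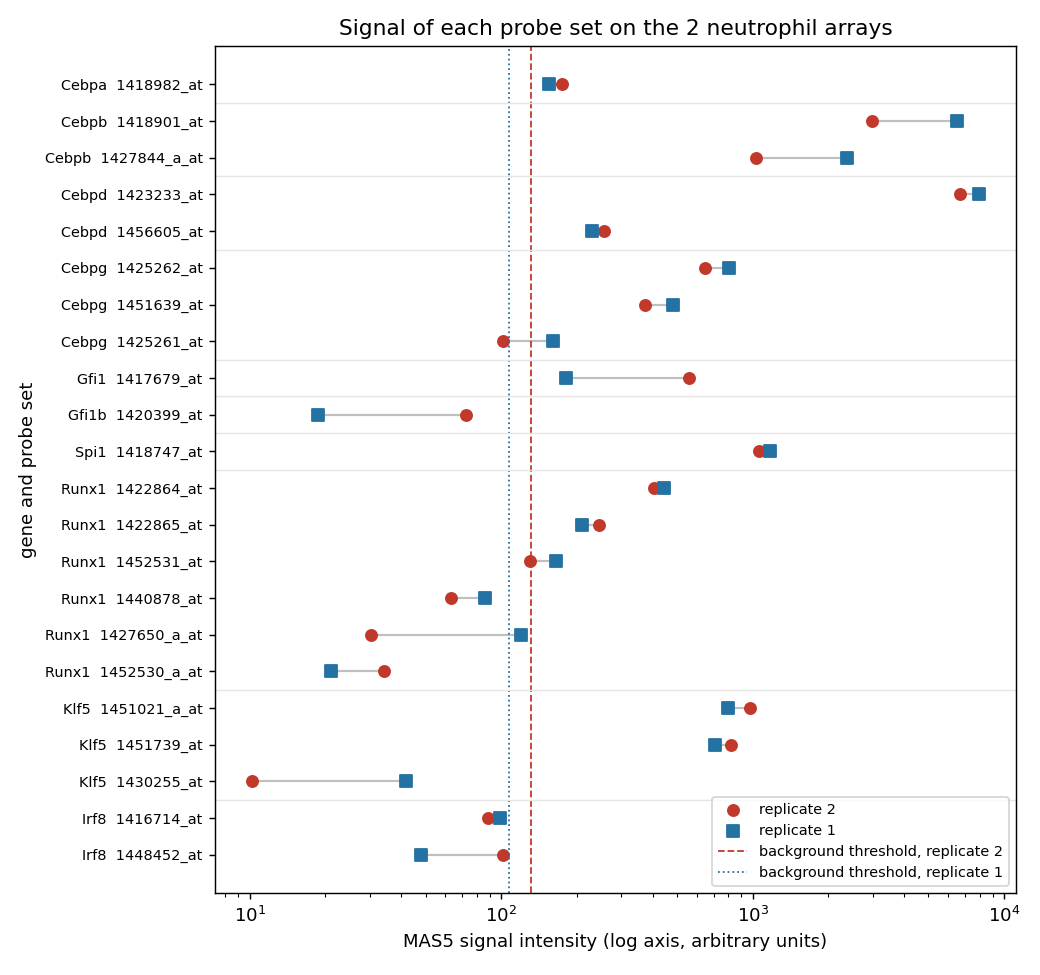
Signal of each of the 22 probe sets of the 10 factors (rows) on replicate 2 (red circles) and replicate 1 (blue squares), on a log axis in arbitrary units, with each array's background threshold (vertical lines at 131 and 108). Both probe sets of Cebpb lie to the left on replicate 2, Gfi1 lies to the right on replicate 2, and all probe sets of Gfi1b and Irf8 lie left of the thresholds.

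Among the C/EBP genes, Cebpb had signals of 2986 on replicate 2 and 6491 on replicate 1 on its brighter probe set, 1418901_at. Its second probe set, 1427844_a_at, had 1035 on replicate 2 and 2369 on replicate 1. Both probe sets were therefore lower on replicate 2 by more than 2-fold, with log2 differences (replicate 2 minus replicate 1) of -1.12 and -1.19. The mean log2 signal of the brighter one was 12.10 ± 0.79 (SD, n = 2). Of the genes above background, 1.97% were lower on replicate 2 by more than 2-fold.

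Cebpd, whose product is a C/EBP factor of later granulocyte stages, had signals of 6699 on replicate 2 and 7975 on replicate 1 on 1423233_at. Its other probe set, 1456605_at, had 257 on replicate 2 and 230 on replicate 1. The log2 differences were -0.25 and 0.16, of opposite sign and each within the SD of the difference over all 7354 genes above background, 0.50. The mean log2 signal on 1423233_at was 12.84 ± 0.18 (SD, n = 2).

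Cebpg, the partner without an activation domain, had 3 probe sets, each lower on replicate 2. Probe set 1425262_at had 646 on replicate 2 and 806 on replicate 1, a log2 difference of -0.32. Probe set 1451639_at had 374 on replicate 2 and 482 on replicate 1, a log2 difference of -0.36. These differences again lay within the SD over all genes. The third, 1425261_at, was above background on replicate 1 alone, with 102 on replicate 2 and 161 on replicate 1. Cebpa, the factor of the first granulocyte step, had 174 on replicate 2 and 156 on replicate 1 on its 1 probe set, a mean log2 signal of 7.36 ± 0.11 (SD, n = 2). Its signal was 1.32 times the background threshold on replicate 2 and 1.44 times on replicate 1, and with the threshold at the 99th percentile it was no longer above background.

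The repressor gene Gfi1 had signals of 560 on replicate 2 and 180 on replicate 1 on its 1 probe set, both above background. These were 4.26 times the threshold on replicate 2 and 1.67 times on replicate 1, so the lower value was near background. The signal was 3.11-fold higher on replicate 2, and the mean log2 signal was 8.31 ± 1.16 (SD, n = 2). Of the genes above background, 3.43% were higher on replicate 2 by more than 2-fold. With the arrays scaled to the hybridisation controls, which moved the median difference of all genes above background from 0.07 to -0.65, the difference of Gfi1 was 0.91 in place of 1.64 and no longer over 2-fold. Its paralogue Gfi1b had 72.7 on replicate 2 and 18.6 on replicate 1, both below background, so no fold is given. Of the markers of cells in which GFI1B is known to act, 3 of 8 erythroid genes and 1 of 6 megakaryocyte genes were above background (Epor, Klf1 and Tfrc, and Itga2b). The erythroid share, 37.5%, was near the 40.4% of all genes.

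**Figure D2:**
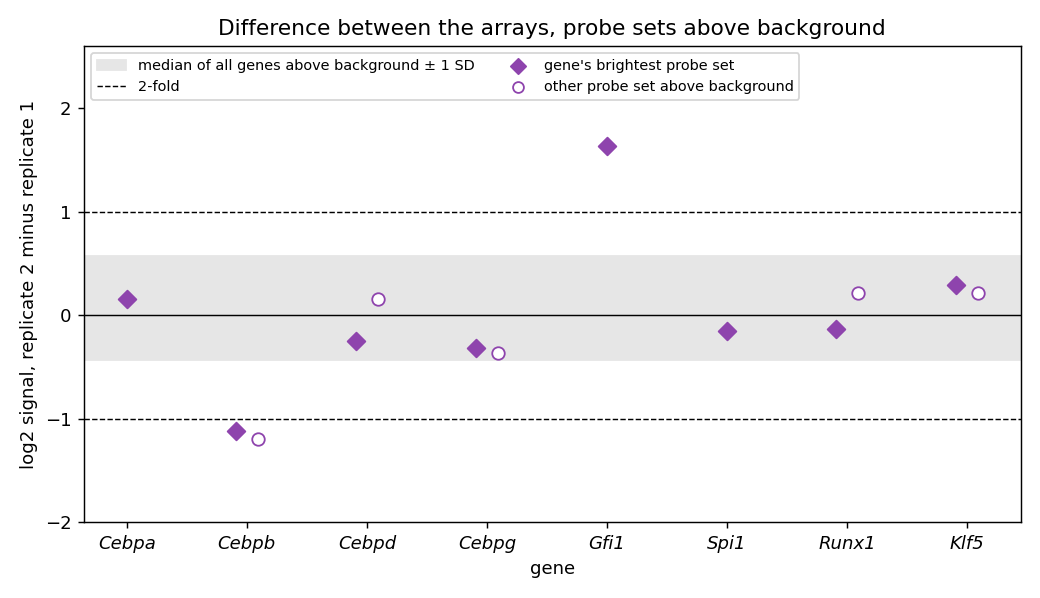
Log2 signal of replicate 2 minus replicate 1 (vertical axis) for the 13 probe sets above background on both arrays, by gene, with filled diamonds for each gene's brightest probe set and open circles for the others. The grey band is the median of all genes above background (0.07) ± 1 SD (0.50), and Gfi1 at 1.64 and both probe sets of Cebpb at -1.12 and -1.19 lie outside the dashed 2-fold lines.

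Spi1, which encodes PU.1, had signals of 1056 on replicate 2 and 1171 on replicate 1 on its 1 probe set, with a mean log2 signal of 10.12 ± 0.11 (SD, n = 2). The log2 difference was -0.15, within the SD over all genes. Runx1 had 6 probe sets, of which 2 were above background on both arrays. Probe set 1422864_at had 404 on replicate 2 and 444 on replicate 1, and 1422865_at had 244 on replicate 2 and 210 on replicate 1. The differences, -0.13 and 0.22, were of opposite sign, and neither exceeded the SD over all genes.

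The other Runx1 probe sets were dim. Probe set 1452531_at lay at the threshold, with 131 on replicate 2 and 166 on replicate 1, where 0.995 and 1.54 times the background were reached. Probe set 1427650_a_at had 30.4 on replicate 2 and 120 on replicate 1, above background on replicate 1 alone. Probe sets 1440878_at and 1452530_a_at had 63.2 and 34.2 on replicate 2 and 86.2 and 21.1 on replicate 1, below background on both. The call for Runx1 thus rests on 2 of its 6 probe sets.

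Klf5 had 976 on replicate 2 and 797 on replicate 1 on 1451021_a_at, and 823 on replicate 2 and 711 on replicate 1 on 1451739_at. Both probe sets were somewhat higher on replicate 2, with log2 differences of 0.29 and 0.21, which lay within the SD over all genes. The third Klf5 probe set, 1430255_at, was below background, with 10.2 on replicate 2 and 41.8 on replicate 1. Averaged over its 3 probe sets, the difference of Klf5 was -0.51, so its sign rests on leaving out the dim probe set, and the sign also turned with scaling to the hybridisation controls (-0.43).

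Irf8 was below background on both of its probe sets. Probe set 1416714_at had 88.8 on replicate 2 and 98.7 on replicate 1, and 1448452_at had 102 on replicate 2 and 48.2 on replicate 1. Of the dendritic cell markers, a cell type that IRF8 is known to direct, 2 of 10 were above background, and of the B cell markers 1 of 9. Monocyte markers were above background in 4 of 7 genes, with a median log2 difference of -0.26. Of all genes, 40.4% were above background on both arrays. Csf1r, the M-CSF receptor gene, had 1928 on replicate 2 and 5020 on replicate 1. The chemokine receptor gene Ccr2 had 220 on replicate 2 and 157 on replicate 1, the opposite direction, and F13a1 (-0.19) and Nr4a1 (-0.33) differed by less than the SD over all genes.

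Over the 8 factors above background, 3 had a higher signal on replicate 2 and 5 a lower one. Of all 7354 genes above background, 4141 were higher on replicate 2 and 3213 lower. The median log2 difference of the 8 factors was -0.14, against 0.07 over all genes above background. Of these 8, 1 was over 2-fold higher on replicate 2 (Gfi1) and 1 over 2-fold lower (Cebpb), and 5.40% of all genes above background were over 2-fold apart in either direction. Among all genes 252 were over 2-fold higher on replicate 2 and 145 lower, while median scaling gave 163 higher and 235 lower. Scaling to the hybridisation controls gave 33 higher and 1555 lower, and moved the median difference of all genes to -0.65. That shift enters every count of higher or lower genes under this scaling. With this last scaling the factors over 2-fold apart were Cebpb (-1.84) and Cebpg (-1.04), both lower, and Gfi1 was the only one of the 8 still higher on replicate 2.

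Proliferation genes moved in the same direction as Gfi1, and the marker lists of other cells gave mixed values. The 10 proliferation genes above background were all higher on replicate 2 (median log2 difference 2.42), 8 of them over 2-fold. Among all 7354 genes above background, 4141 were higher on replicate 2 and 3.43% were over 2-fold higher. With scaling to the hybridisation controls, 9 of the 10 proliferation genes were higher (median 1.70, against -0.65 over all genes). The summed signal of the 19 measured proliferation genes was 13264 on replicate 2 and 2743 on replicate 1. Kit, a receptor gene of progenitors, had 547 on replicate 2 and 244 on replicate 1. It was the only 1 of 8 stem and progenitor markers above background on both arrays (12.5%), against 40.4% of all genes. The progenitor list summed to 1126 on replicate 2 and 595 on replicate 1. Without Kit, the other 7 summed to 579 on replicate 2 and 351 on replicate 1, none above background on both arrays, with 4 higher on replicate 2 and 3 lower (Flt3, Procr and Meis1, named after their values were seen). The 7 monocyte markers summed to 3048 on replicate 2 and 6291 on replicate 1, and none was at 0. Csf1r, which also stands in the GFI1 and PU.1 target lists, carried most of that gap. The other 6 summed to 1120 on replicate 2 and 1271 on replicate 1, with 2 higher on replicate 2 and 4 lower. The B cell markers summed to 1014 on replicate 2 and 568 on replicate 1, and the dendritic cell markers to 634 and 1046. Of the 12 neutrophil protein genes, 9 were higher on replicate 2 and 3 lower, 1 of these over 2-fold (median of the 12, 0.40). With quantile normalization 6 were higher and 6 lower. The sort was for Gr-1-high cells without CD48, and how many other cells remained was not measured here. The part of cell composition, whether other cells or the neutrophils themselves, in the differences of Gfi1 and Cebpb was not tested.

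Genes for proteins that work with these factors were mostly above background, beside 40.4% of all genes. Of the GFI1 cofactor genes, which encode subunits of the complexes that carry out its repression, 6 of 8 were above it. Kdm1a, the histone demethylase bound by GFI1, had 758 on replicate 2 and 601 on replicate 1, and Rcor1, the scaffold of that complex, had 3262 on replicate 2 and 1763 on replicate 1. All 6 were higher on replicate 2 (median log2 difference 0.38, none over 2-fold), but only 1 of 6 with scaling to the hybridisation controls (median -0.34). Of all 7354 genes above background, 4141 were higher on replicate 2 and 3213 lower. The median of all genes was -0.65 with scaling to the hybridisation controls. Of the RUNX partners 5 of 7 were above background, with Cbfb, the subunit that stabilises RUNX proteins on DNA, at 2090 on replicate 2 and 1710 on replicate 1. The paralogue Runx3 was above background on replicate 1 alone, with 90.9 on replicate 2 and 166 on replicate 1.

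**Figure D3:**
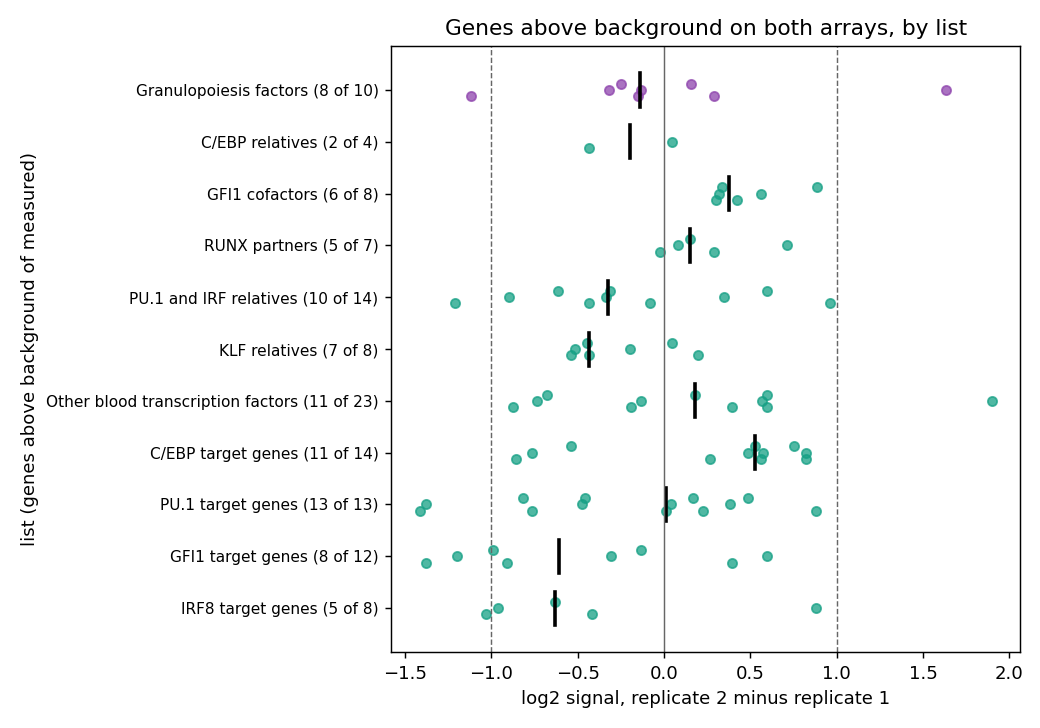
Log2 signal of replicate 2 minus replicate 1 (horizontal axis) for each gene above background on both arrays, in the 10 factors (purple) and in lists of relatives, partners and known targets (green), with a black bar at each median and dashed lines at 2-fold. The medians are -0.63 for the IRF8 target genes, -0.61 for the GFI1 target genes, -0.43 for the KLF relatives and 0.53 for the C/EBP target genes. Some genes stand in several lists. Irf5 (-1.21), of the PU.1 and IRF relatives, is plotted on its brightest probe set, which was below the threshold on replicate 2.

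Paralogues and other relatives were read in the same way, beside the same shares of all genes. Of the C/EBP relatives, Ddit3, a C/EBP-like stress factor, had 419 on replicate 2 and 568 on replicate 1, and Trib1, an adaptor for the breakdown of C/EBPα, had 504 on replicate 2 and 489 on replicate 1. Trib2 and Trib3 were not above background, and Cebpe and Cebpz were not analysed here. Of the PU.1 and IRF relatives 10 of 14 were above background, 7 of them lower on replicate 2 (9 with scaling to the hybridisation controls). Among the 7, Irf1, an interferon-induced factor, had 1148 on replicate 2 and 2136 on replicate 1. Irf5 (-1.21) was also counted lower, but its brightest probe set was below the threshold on replicate 2 (125). The PU.1 paralogues Spib and Spic and the IRF8 paralogue Irf4 were not above background. Ets1 had 5080 on replicate 2 and 3358 on replicate 1, and Erg 1451 on replicate 2 and 745 on replicate 1. Of the KLF relatives 7 of 8 were above background, Klf4, a monocyte factor, being the exception, and 5 of the 7 were lower on replicate 2 (median -0.43). Median scaling gave 6 of 7 lower (median -0.56), and scaling to the hybridisation controls 7 of 7 (median -1.15). The medians of all genes above background under these scalings were -0.06 and -0.65.

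Known targets of the factors were read next to them, beside the same shares of all genes. The 13 measured PU.1 target genes were all above background, 7 higher on replicate 2 and 6 lower, with a median of 0.01. Median scaling gave 5 higher and 8 lower (median -0.12), and scaling to the hybridisation controls 1 higher and 12 lower (median -0.71). Over all genes above background these scalings gave medians of -0.06 and -0.65. The PU.1 target genes include Itgam, an integrin gene, with 6868 on replicate 2 and 6822 on replicate 1. Of the C/EBP target genes 11 of 14 were above background and 8 of the 11 higher on replicate 2, with a median of 0.53 that became -0.01 with quantile normalization and -0.19 with scaling to the hybridisation controls. Csf3r, the G-CSF receptor gene, was among the 3 lower ones, with 4670 on replicate 2 and 7951 on replicate 1. Of the GFI1 target genes, which GFI1 is known to repress, 8 of 12 were above background and 6 of the 8 lower on replicate 2. Csf1r and Socs3, a brake on cytokine signalling, were over 2-fold lower, and Ets1 (0.60) and Id2 (0.40) were higher. Also over 2-fold lower were 2 of the 13 PU.1 target genes, Csf1r among them, and 1 of the 5 IRF8 target genes above background. The share over all genes above background was 1.97%. The median of the GFI1 target genes was -0.61. With scaling to the hybridisation controls 8 of 8 were lower with a median of -1.33, where the median of all genes was -0.65. Of the IRF8 target genes 5 of 8 were above background, 4 of them lower on replicate 2, although Irf8 itself was below background. Their median was -0.63, and -1.35 with scaling to the hybridisation controls. Among them Ctss, a lysosomal protease gene, had 858 on replicate 2 and 1670 on replicate 1.

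Of 23 other blood transcription factor genes, 11 were above background (47.8%), against 40.4% of all genes. Myb, a factor of dividing progenitors, had 945 on replicate 2 and 253 on replicate 1, a log2 difference of 1.90, and was the only one of the 11 over 2-fold apart. Ikzf1, which encodes the zinc finger protein Ikaros, had 6172 on replicate 2 and 4080 on replicate 1. Id2, an inhibitor of helix-loop-helix factors, had 7532 on replicate 2 and 5724 on replicate 1. The lineage factors Gata1, Gata2, Gata3, Ebf1 and Pax5, named here after their values were seen, were not above background on both arrays. Of these, Pax5 was above the threshold on replicate 2 alone (174) and Gata2 on replicate 1 alone (157). Other factors of the same list, among them Lmo2, Lyl1 and Zbtb16, were above background on both arrays.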

How the data were processed

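Total RNA (200 ng) of sorted bone marrow neutrophils was labelled with an Affymetrix 3′ IVT kit, per the labels' protocols, and hybridised to 1 array per experiment. The deposited values are linear signal intensities, for which the submitters' processing notes name MAS5; the sources used here give no version. GEO's platform annotation names 1 gene for 34958 probe sets, several for 932 and none for 9211. All 22 probe sets of the 10 genes have the same symbol in the RefSeq table of GRCm38.p6, and none of the 932 names a member. Log2 signals (floor 1) and differences were computed with pandas 2.3.3 and numpy 2.4.6, and the procedure was tested on simulated data. No comparison between conditions exists, so no test was run. The labels do not say whether the experiments used separate animals.

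The members and lists (20 lists, 197 genes, 19 of them not analysed here) were chosen with earlier results of these data known. All members were named; of the relatives and partners any gene could be named, and of other lists up to 8 genes above background in list order. Alternatives were the 90th and 99th percentile, median, quantile and control scaling (18 hybridisation control probe sets), probe set averages, no _x_at or _s_at probe sets, 32 added to the signal, no filter, and each array alone.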

Additional observations from a re-analysis of the deposited data

How the results depend on the processing

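The count of factors above background was 8 under every alternative except the 99th percentile, where it was 7 without Cebpa; without replicate 1 and without replicate 2 it was 8 to 8. Of these factors 2 were over 2-fold apart under each alternative, Cebpb and Gfi1, except that scaling to the hybridisation controls gave Cebpb and Cebpg, and no filter on background gave 3 by adding Gfi1b, which was below background on both arrays. The median difference over the factors (-0.14) was -0.86 with scaling to the hybridisation controls, by construction, since that scaling lowered every value of replicate 2 alike. The signs of Cebpa (-0.56) and Klf5 (-0.43) turned under it, and that of Klf5 (-0.51) also when its probe sets were averaged. The percentiles, the filter and leaving out _x_at or _s_at probe sets could not change the difference of any factor. Averaging could not change that of Gfi1, which has 1 probe set. Under the settings that could change them, Gfi1 was higher on replicate 2 (0.91 to 1.57) and Cebpb lower (-1.84 to -1.04). Over all genes 5.40% were over 2-fold apart, 21.6% with scaling to the hybridisation controls, 8.93% with probe set averages and 27.1% without a filter. Of the 161 values of single genes recomputed under an alternative, 137 moved by less than the spread. Many of these 137 were fixed, because the percentile, filter and _x_at or _s_at settings could not move them. For a difference the spread was the SD over all genes above background. For a mean signal it was the gene's own SD over the 2 arrays. No paired analysis was possible because there is 1 group. No setting was added after the data were seen. Detection near background limits Cebpa, Irf8, Gfi1b, the dim Runx1 probe sets and the replicate 1 value of Gfi1.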
